A study of Mus musculus with 6 samples.

Results

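The D-type cyclins Ccnd1, Ccnd2 and Ccnd3, their catalytic partners Cdk4 and Cdk6, and the CDK inhibitors Cdkn1a (p21), Cdkn1b (p27), Cdkn1c (p57) and Cdkn2c (p18) were followed through the stem, cycling and differentiated cells of mouse small intestinal organoids. These 9 genes were found by symbol among the 32285 genes of the deposited count matrices, and each symbol matched 1 row in each of the 6 matrices. The organoids came from adult mice 10 weeks old and were profiled by droplet-based single cell RNA sequencing of 3′ transcript ends on day 3. WT organoids received DMSO (-EIPA, 2 libraries) or EIPA (+EIPA, 2 libraries), a small molecule inhibitor. Inducible CRISPR-Cas9 organoids carried a lentiviral, doxycycline-driven Cas9 with a guide RNA and were profiled without Dox (-Dox, 1 library) and with Dox (+Dox, 1 library). These organoids were single clones selected with puromycin. Live cells were sorted for the other libraries and live GFP+ cells for +Dox, so the sort differed between -Dox and +Dox. The comparisons ask how these 9 genes differed between cell classes and with EIPA or Dox.

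D cyclins are made in response to growth signals such as Wnt and bind CDK4 or CDK6, and these complexes phosphorylate RB and its relatives so that E2F factors can switch on genes of DNA replication. Inhibitors of the INK4 family, which includes Cdkn2c, bind the CDK4 and CDK6 subunits directly, whereas Cip/Kip inhibitors (Cdkn1a, Cdkn1b and Cdkn1c) block CDK2 complexes and also bind cyclin D complexes. In the intestine, stem cells at the crypt base and the transit-amplifying cells above them divide, and enterocytes, goblet, Paneth, enteroendocrine (EEC) and tuft cells do not.

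After the limits on cells, 12083 to 18211 cells remained per library, with 161670015 to 239368573 UMIs (unique molecular identifiers, each 1 captured transcript) and a median of 11477.5 to 17020 UMIs per cell. Any pair of libraries shared at most 0.5628% of the cell barcodes of the smaller one. Cells fell into 25 clusters, of which 19 were named from marker genes that held none of the 9 genes, and 15.6% of cells stayed in unnamed clusters. The epithelial list (Epcam, Cdh1, Krt8, Krt18, Vil1) summed to 3456 to 5023 CPM (UMIs of a gene scaled to a total of 1e6 per class and library) over all cells, against 1.01 to 1.56 CPM for 5 immune genes and 0.38 to 0.59 CPM for 5 stromal genes. The 3′ tags carry no gene length, so levels were compared between cell classes and libraries and not between genes.

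The annotation (GENCODE vM21, mm10) places the genes on 6 chromosomes. Ccnd1 is at chr7:144929931-144939925 and Cdkn1c at chr7:143458339-143461050, both on the minus strand. Ccnd2 (minus strand) is at chr6:127125162-127152193 and Cdkn1b (plus strand) at chr6:134920401-134925513. Ccnd3 (chr17:47505051-47599691) and Cdkn1a (chr17:29090976-29100727) lie on the plus strand, as do Cdk4 (chr10:127063534-127067920) and Cdk6 (chr5:3341485-3531008). Cdkn2c is at chr4:109660876-109667189 on the minus strand. No annotated gene overlapped any of the 9 on its own strand, and 7 of them, Cdk4 with Tspan31 among these, overlapped a gene on the opposite strand.

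The promoters of Cdk4 and Cdkn1a are shown because Cdk4 was high and Cdkn1a low in stem-like cells and the reverse held in enterocyte-like cells. RefSeq promoter sequences (GRCm38.p6) were matched by symbol for 6 of the 9 genes, and Ccnd1, Ccnd2 and Cdkn1c had no entry. Each line gives the 250 bases before a transcription start, 5′ to 3′ in the gene's direction, with capitals marking any match on either strand to the E-box CACGTG, the GC box GGGCGG, the p53 half-site core ACATGT, the CCAAT box CCAAT or the TATA box TATAAA.
Cdk4, chr10:127063285-127063534, plus strand: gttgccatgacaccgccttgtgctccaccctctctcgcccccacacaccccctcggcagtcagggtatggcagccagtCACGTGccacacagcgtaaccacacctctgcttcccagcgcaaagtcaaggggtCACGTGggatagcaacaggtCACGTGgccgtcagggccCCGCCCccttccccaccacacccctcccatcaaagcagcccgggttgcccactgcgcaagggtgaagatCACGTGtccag
Cdkn1a, upstream start, chr17:29090729-29090978, plus strand: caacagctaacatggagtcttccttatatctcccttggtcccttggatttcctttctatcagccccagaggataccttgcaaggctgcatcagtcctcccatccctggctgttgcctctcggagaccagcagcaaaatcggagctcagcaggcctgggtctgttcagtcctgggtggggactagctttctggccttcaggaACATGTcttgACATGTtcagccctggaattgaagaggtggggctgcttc
Cdkn1a, downstream start, chr17:29093519-29093768, plus strand: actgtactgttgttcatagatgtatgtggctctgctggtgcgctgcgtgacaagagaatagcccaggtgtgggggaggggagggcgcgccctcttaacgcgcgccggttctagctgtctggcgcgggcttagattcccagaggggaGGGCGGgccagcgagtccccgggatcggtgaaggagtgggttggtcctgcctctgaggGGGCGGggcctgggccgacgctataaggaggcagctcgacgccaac
The Cdk4 window held 4 E-boxes and 1 GC box on the opposite strand. Of 32851 mouse windows of this length, 6.021% held an E-box and 7 held 4 or more. The upstream Cdkn1a window held 2 p53 half-site cores, and 4.575% of windows held at least 1 and 81 windows held 2 or more. The downstream Cdkn1a window held 2 GC boxes, a motif present in 32.74% of windows, while CCAAT (33.85% of windows) and TATAAA (12.37%) were in none of these 3 windows. These matches describe the letters of the windows and were not tested for binding.

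Ccnd1, Cdk4 and Cdk6 were highest in ISC-like cells and lowest in enterocyte-like cells. Cdkn1a was lowest in ISC-like cells and, by median, highest in EEC-like cells with enterocyte-like cells next. Levels by class are descriptions with no test, because the classes came from clusters of the same cells. Classes are given in the order of their median CPM over the 6 libraries, and overlap between neighbours refers to their ranges over libraries. Since each library holds every class, a pair whose ranges overlapped could still keep 1 order in 6 of 6 libraries, and such pairs are named.

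Ccnd1, a Wnt-responsive D cyclin, was at 237 and 219 CPM in ISC-like cells of -EIPA 1 and 2, 227 and 225 CPM in +EIPA 1 and 2, 202 CPM in -Dox and 179 CPM in +Dox. In enterocyte-like cells it was at 57.9, 75.6, 39.0, 32.9, 70.6 and 29.4 CPM in the same order of libraries. ISC-like cells were thus above enterocyte-like cells in 6 of 6 libraries, by 2.86- to 6.84-fold, with no overlap. Between them stood proliferating-like (172 CPM), regenerative-like (171), Goblet/Paneth-like (116), tuft-like (96.1) and EEC-like cells (77.8), with overlapping ranges at every step. Even so, ISC-like was above proliferating-like, regenerative-like above Goblet/Paneth-like and EEC-like above enterocyte-like in 6 of 6 libraries. Within the enterocyte-like class Ccnd1 was lower in cluster 5 (led by Apoc3 and Apoa1) than in cluster 2 (led by Gstm3 and Fabp1) in 6 of 6 libraries.

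Ccnd2, a D cyclin, stayed at 156 CPM or more in each of the 7 classes in each library. Its class medians ran from 656 CPM in regenerative-like and 631 CPM in proliferating-like cells through 475 CPM in ISC-like, 442 CPM in Goblet/Paneth-like and 386 CPM in EEC-like cells to 276 CPM in enterocyte-like and 259 CPM in tuft-like cells. Neighbouring classes overlapped throughout, although proliferating-like was above ISC-like and ISC-like above Goblet/Paneth-like in 6 of 6 libraries. The classes highest and lowest by median, regenerative-like and tuft-like, differed by 1.86- to 4.58-fold within a library. Regenerative-like cells numbered only 37 in -EIPA 1, where they had 1063 CPM. By median over libraries an unnamed cluster led by Dmbt1 and Krt19 stood above every named class, with 842 and 537 CPM in -EIPA, 824 and 620 CPM in +EIPA, 884 CPM in -Dox and 1058 CPM in +Dox. In that cluster Ccnd2 was 1.56- to 2.00-fold above ISC-like cells, whereas Ccnd1 and Cdk4 were below them in 6 of 6 libraries. Ccnd2 also differed between the 2 experiments: over all cells it was at 540.0 and 521 CPM in the libraries numbered 1 and at 344 and 378 CPM in those numbered 2.

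Ccnd3, the third D cyclin, varied over a narrow range between classes. Its medians lay between 22.2 CPM in enterocyte-like and 32.5 CPM in EEC-like cells, and even the ranges of these 2 classes overlapped. Proliferating-like was above ISC-like in 6 of 6 libraries. EEC-like was above ISC-like and above Goblet/Paneth-like in 6 of 6 libraries and above enterocyte-like in 5 of 6.

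Cdk4 and Cdk6, the kinases that D cyclins activate, parted in their middle ranks. Cdk4 was at 289 and 307 CPM in ISC-like cells of -EIPA, 301 and 316 CPM in +EIPA, 269 CPM in -Dox and 278 CPM in +Dox, and the proliferating-like range (median 278 CPM) overlapped these values but was lower in 6 of 6 libraries. EEC-like (251 CPM) and tuft-like cells (234.9 CPM) kept most of that level, Goblet/Paneth-like cells had 187 CPM and regenerative-like cells 127 CPM, in that order in 6 of 6 libraries, and regenerative-like was above enterocyte-like in 6 of 6. Enterocyte-like cells were lowest at 99.7 and 128 CPM in -EIPA, 73.0 and 64.5 CPM in +EIPA, 87.6 CPM in -Dox and 54.4 CPM in +Dox, 2.40- to 5.10-fold below ISC-like cells. The cluster with the highest Cdk4 median was an EEC-like one, cluster 13 (led by Ghrl and Neurog3), at 343 CPM, next to 334 CPM in cluster 7 (led by Ube2c and Birc5) of the proliferating-like class.

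Cdk6 was the member most concentrated in ISC-like cells and stood among the 10 leading genes of that cluster, although it was kept out of the clustering. It was at 135 and 150.01 CPM in -EIPA, 122 and 131 CPM in +EIPA, 220.0 CPM in -Dox and 273 CPM in +Dox there. Enterocyte-like cells had 14.1 and 21.3 CPM in -EIPA, 16.3 and 16.5 CPM in +EIPA, 31.5 CPM in -Dox and 40.8 CPM in +Dox. The ratio of ISC-like to enterocyte-like cells was 6.69- to 9.63-fold, and the ratio of ISC-like to proliferating-like cells was 1.598- to 2.655-fold, higher in 6 of 6 libraries. The other steps ran through regenerative-like, proliferating-like, Goblet/Paneth-like, EEC-like, tuft-like and enterocyte-like cells with overlapping ranges, and each kept its order in 6 of 6 libraries except that from Goblet/Paneth-like to EEC-like cells (4 of 6).

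Cdkn1a, the p53-responsive Cip/Kip inhibitor, was lowest in ISC-like cells at 22.9 and 17.1 CPM in -EIPA, 28.3 and 23.5 CPM in +EIPA, 23.6 CPM in -Dox and 36.7 CPM in +Dox. Proliferating-like cells had 47.2 and 42.6 CPM in -EIPA, 52.5 and 57.6 CPM in +EIPA, 59.3 CPM in -Dox and 96.3 CPM in +Dox, above every ISC-like value. Goblet/Paneth-like cells followed without overlap (median 123 CPM), and tuft-like (168 CPM), regenerative-like (240.5 CPM), enterocyte-like (455 CPM) and EEC-like cells (578 CPM) came next with overlapping ranges, with enterocyte-like above regenerative-like in 6 of 6 libraries. EEC-like cells were 17.3- to 32.6-fold above ISC-like cells. Within the enterocyte-like class Cdkn1a was 1.51- to 2.65-fold higher in cluster 5 than in cluster 2, in 6 of 6 libraries, which is the reverse of Ccnd1, Ccnd2 and Cdk4.

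Cdkn1b, a Cip/Kip inhibitor linked to quiescence, formed 3 levels. EEC-like (94.0 CPM) and tuft-like cells (88.4 CPM) were highest, proliferating-like (61.1 CPM), ISC-like (59.4 CPM) and Goblet/Paneth-like cells (55.9995 CPM) lay in the middle, and enterocyte-like (26.2 CPM) and regenerative-like cells (25.7 CPM) were lowest. The tuft-like and proliferating-like ranges did not overlap, nor did those of Goblet/Paneth-like and enterocyte-like cells, while within each level neighbouring ranges did. Cycling cells were not uniform: Cdkn1b was 1.40- to 1.82-fold higher in cluster 1 (led by histone genes and Top2a) than in cluster 0 (led by Ung and Mcm genes) in 6 of 6 libraries. Cluster 10 (led by Cenpf and Ube2c) had a median of 77.6 CPM. Cluster 7 (led by Ube2c and Birc5) had 47.9 CPM, near the 46.3 CPM of cluster 0.

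Cdkn1c, the imprinted Cip/Kip inhibitor, had its highest level in EEC-like cells, with no overlap with any other class. It was at 259.5 and 310.0 CPM there in -EIPA, 242 and 260.5 CPM in +EIPA, 47.0 CPM in -Dox and 39.8 CPM in +Dox. Tuft-like cells came next with a median of 25.97 CPM, above Goblet/Paneth-like cells in 6 of 6 libraries, and every other named class had a median of 6.34 CPM or less. The low level elsewhere was not told apart from free RNA in the droplets: the EEC marker list summed to 38069 to 45020 CPM in EEC-like and to 82.3 to 130 CPM in ISC-like cells of the WT libraries, where Cdkn1c was at 3.84 to 5.03 CPM. The part of free RNA in these values was not tested.

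Cdkn2c, the INK4 inhibitor among the members, was highest in proliferating-like cells (14.4 and 16.1 CPM in -EIPA, 12.9 and 13.2 CPM in +EIPA, 18.6 CPM in -Dox and 18.1 CPM in +Dox). Enterocyte-like cells had a median of 3.63 CPM, 2.84- to 5.40-fold lower, and the 5 remaining classes lay between 6.58 and 11.03 CPM. Among cycling cells it was 2.35- to 3.06-fold higher in cluster 1 (21.2 CPM) than in cluster 0 (8.19 CPM), in 6 of 6 libraries. Cdkn2c was thus lower in cluster 0, led by Ung and Mcm genes, than in cluster 1, led by histone genes and Top2a, the same order as Cdkn1b.

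**Figure D1:**
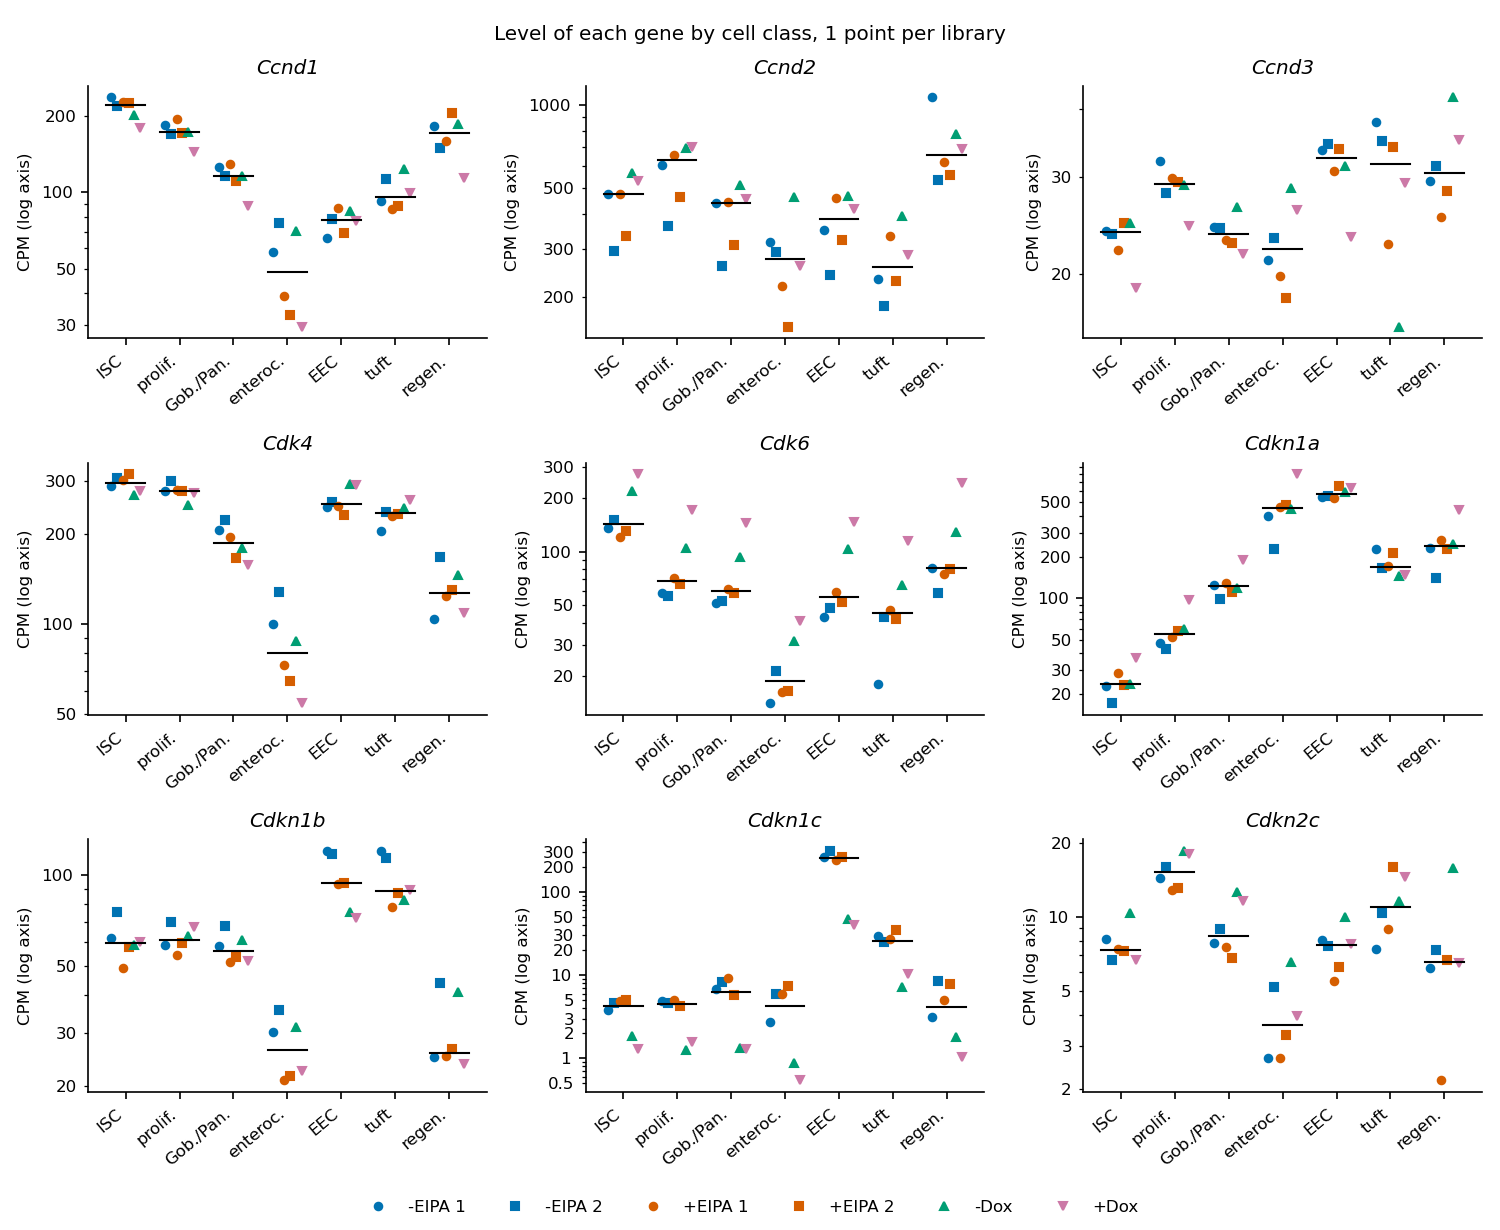
CPM (log axis) of the 9 genes in 7 cell classes, with 1 point per library and a bar at the median. Ccnd1, Cdk4 and Cdk6 are lowest in enterocyte-like cells, Cdkn1a climbs from 23.5 CPM in ISC-like to 578 CPM in EEC-like cells, Cdkn1c stands out in EEC-like cells and Ccnd3 is nearly level.

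The 3 EEC-like clusters used the Cip/Kip inhibitors unequally. Cluster 13 (led by Ghrl and Neurog3, the latter a factor of early EEC cells) had the highest Cdkn1a of any EEC-like cluster by median, at 932 and 973 CPM in -EIPA, 956 and 1139 CPM in +EIPA, 649.8 CPM in -Dox and 729.9 CPM in +Dox. Cluster 16 (led by Chgb and Tph1, which makes serotonin) had 134 and 115 CPM in -EIPA, 149 and 138 CPM in +EIPA, 368 CPM in -Dox and 268 CPM in +Dox. Cluster 13 was above cluster 16 in 6 of 6 libraries, and the gap was narrower in the CRISPR libraries. Cdkn1b ran the other way between them, at 187 and 155 CPM in -EIPA, 116 and 124 CPM in +EIPA, 101 CPM in -Dox and 75.1 CPM in +Dox in cluster 16 against a median of 73.9 CPM in cluster 13, and was higher in cluster 16 in 6 of 6 libraries. Cdkn1c was highest in cluster 19 (led by the hormone genes Gip and Cck) in the WT libraries, with 398 and 520 CPM in -EIPA and 438 and 417 CPM in +EIPA. In the CRISPR libraries that cluster had only 30.6 CPM in -Dox and 86.1 CPM in +Dox.

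**Figure D2:**
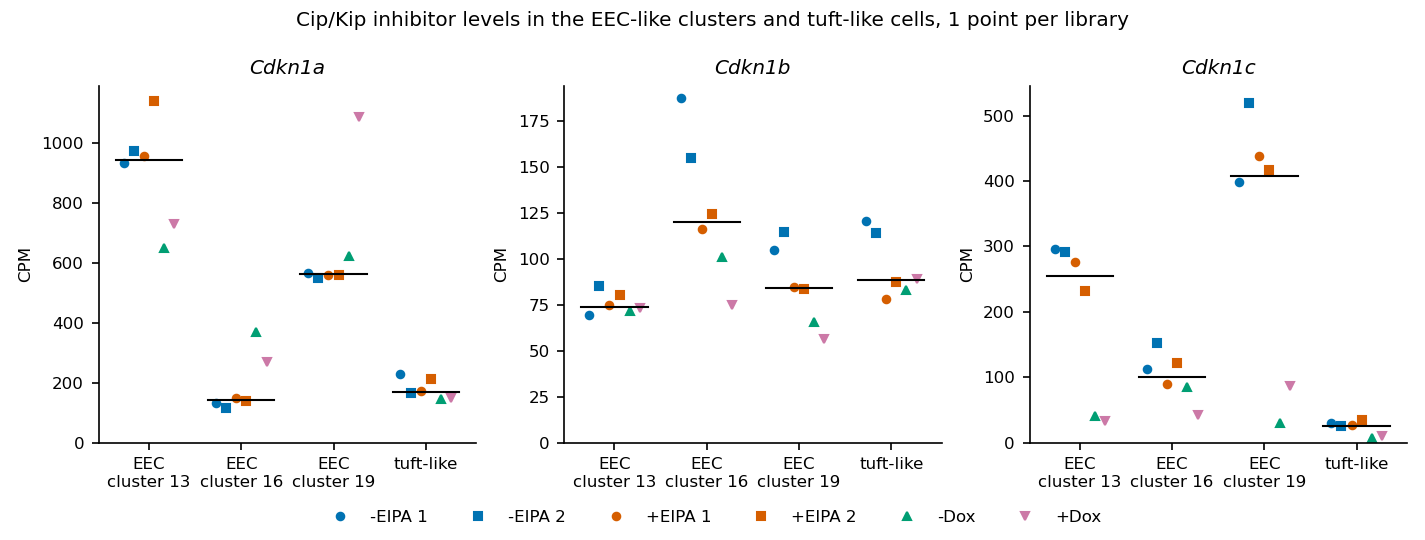
CPM of Cdkn1a, Cdkn1b and Cdkn1c in EEC-like clusters 13, 16 and 19 and in tuft-like cells, 1 point per library with a bar at the median. Cdkn1a is high in clusters 13 and 19 and low in cluster 16 (medians 944, 563 and 144 CPM), Cdkn1b is highest in cluster 16, and the Cdkn1c points of the CRISPR libraries lie below the WT points.

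For Cdk6 and Cdkn1c both CRISPR libraries lay on the same side outside the range of the 4 WT libraries in all cells and in each of the 7 classes, and each of the other 7 members did so in at least 1 grouping and at most 5 (Cdk4). The share of all genes that did so was not computed, so these counts do not set the members apart from other genes. For Cdkn1c some classes held few UMIs. Regenerative-like cells had 4 in -Dox, 4 in +Dox and 2 in -EIPA 1, and tuft-like cells had 5 in -Dox and 7 in +Dox. Cdk6 over all cells was at 52.8 and 57.3 CPM in -EIPA against 92.0 CPM in -Dox, and -Dox was 1.54- to 2.27-fold above the -EIPA mean in the 7 classes and in all cells. Cdkn1c in EEC-like cells was 6.06-fold lower in -Dox than in -EIPA, and it was 2.30- to 7.64-fold lower in the 7 classes and in all cells. The EEC marker list moved with Cdkn1c: its 17 genes summed to 38069 to 45020 CPM in EEC-like cells of the WT libraries and to 4820 and 5298 CPM in -Dox and +Dox, and cluster 13 made up 66.4% and 64.9% of EEC-like cells there against 37.1% to 40.3%. Their part in the Cdkn1c difference was not tested, and with 1 -Dox library against 2 -EIPA libraries the lentiviral line, its clonal origin and the library cannot be told apart.

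Over the 42 points given by 7 classes and 6 libraries, 9436 genes reached 10 CPM in some class median, and the 2 most like each member by Pearson's r of log2(CPM + 1) are given as a description, since points share libraries and depth. Cdk4 ran closest with Hmgb3 (r = 0.973), a chromatin protein, and Eif3m (0.966), a translation factor subunit. Ccnd1 was most like Hdgf (0.912) and Hmga1 (0.900), Ccnd2 like Colgalt1 (0.848) and Tln2 (0.833), and Ccnd3 like Arl16 (0.8201) and Setd3 (0.741). Cdk6 was most like Mecom (0.880), a transcription factor gene, and App (0.862). Of the inhibitors, Cdkn1a was most like Atp6v0d1 (0.953), a subunit of the vacuolar proton pump, and Riok3 (0.943), Cdkn1b like Htatsf1 (0.943) and Arglu1 (0.938), Cdkn1c like Tmem184c (0.961) and Celf2 (0.943), and Cdkn2c like E2f8 (0.882), an E2F family repressor, and Ndc1 (0.877). Among the members themselves the highest r was between Cdk4 and Cdkn1b (0.816) and the lowest between Ccnd1 and Cdkn1a (-0.80).

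With EIPA, Ccnd1, Ccnd2, Cdk4 and Cdkn1b were lower and Cdkn1a was higher in enterocyte-like cells of both experiments. None of these passed the test that ignores the experiment number, and all 5 passed once libraries prepared together were paired. The comparison used counts summed per library and class in edgeR's quasi-likelihood test, 2 libraries against 2, with Benjamini-Hochberg adjusted p-values over all genes tested. Without the pairing 0 of the 9 members were called at adjusted p under 0.05 in each of 5 comparisons, against a background of 0% of 15890 genes over all cells, 0% in ISC-like, 0% in proliferating-like, 0.0551% in enterocyte-like and 0.174% in Goblet/Paneth-like cells. At an unadjusted p under 0.05 the counts of all genes were 1601 over all cells, 450 in ISC-like and 625 in proliferating-like cells, where edgeR called 0 genes and DESeq2 called 579, 14 and 110. With the experiment as a block the background was 5.28% of genes over all cells, 6.8% in ISC-like, 6.14% in proliferating-like, 9% in enterocyte-like and 6.4% in Goblet/Paneth-like cells, and the members called were 1, 3, 3, 6 and 1 of 9. With only 2 pairs this fit had almost no residual degrees of freedom. Its p-values thus lean on the spread pooled over genes and are weak support for any single gene. By DESeq2, which ignored the pairing, Cdkn1a was called over all cells and Ccnd1 and Cdk4 in enterocyte-like cells, and no other member was called in any of the 5 comparisons.

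In enterocyte-like cells Ccnd1 was at 57.9 and 75.6 CPM in -EIPA and at 39.0 and 32.9 CPM in +EIPA, with no overlap, and +EIPA was 0.673 and 0.435 of -EIPA in experiments 1 and 2. The log2 fold change was -0.74 ± 0.16 (SE, n = 2 per group), with an edgeR adjusted p of 0.122, or 0.0109 with the block and 0.00719 by DESeq2, which called 5.09% of genes in this class. Ccnd2 was at 318 and 292 CPM in -EIPA and at 220 and 156 CPM in +EIPA, also without overlap. Its log2 fold change was -0.55 ± 0.19, with an edgeR adjusted p of 0.213, or 0.0324 with the block. Cdk4 was at 99.7 and 128 CPM in -EIPA and at 73.0 and 64.5 CPM in +EIPA, with a log2 fold change of -0.58 ± 0.15, an edgeR adjusted p of 0.162, 0.0317 with the block and 0.0434 by DESeq2. The 3 genes were lower in +EIPA in both experiments and by more in experiment 2. Leaving out -EIPA 1 gave log2 fold changes of -0.88 for Ccnd1 and -0.70 for Cdk4, and leaving out -EIPA 2 gave -0.57 and -0.42.

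Cdkn1a in enterocyte-like cells was at 395 and 227 CPM in -EIPA and at 464 and 477 CPM in +EIPA, 1.18 times in experiment 1 and 2.10 times in experiment 2. The -EIPA 2 library was the lowest of the 4 and set much of the size of the difference. The log2 fold change was 0.74 ± 0.28, with an edgeR adjusted p of 0.2351 and 0.0305 with the block. Without -EIPA 2 the log2 fold change was 0.37, and without -EIPA 1 it was 1.24. Cdkn1b was at 30.0 and 35.7 CPM in -EIPA and 20.9 and 21.6 CPM in +EIPA (log2 fold change -0.48 ± 0.13, edgeR adjusted p = 0.165, with the block 0.0426). Without -EIPA 1 its log2 fold change was -0.56. Cdkn1c was low in these cells, at 2.71 and 5.90 CPM in -EIPA and 5.89 and 7.37 CPM in +EIPA, with overlapping groups, a log2 fold change of 0.78 ± 0.35 and an edgeR adjusted p of 0.293, with the block 0.0346. Ccnd3 (-0.08 ± 0.12), Cdk6 (0.04 ± 0.20) and Cdkn2c (-0.24 ± 0.33) stayed within their errors. Over the 9 members the median log2 fold change was -0.24, beside -0.04 over all 12708 genes tested. Scaling by library size alone moved that median to -0.19, and the direction of Ccnd1, Ccnd2, Cdk4, Cdkn1a and Cdkn1b relative to it was kept.

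The makeup of the enterocyte-like class moved with EIPA as well. Cluster 5, where Ccnd1, Ccnd2 and Cdk4 were low and Cdkn1a high, made up 26.6% and 20.2% of the class in -EIPA and 36.5% and 40.02% in +EIPA. The enterocyte marker list summed to 39122 and 25397 CPM in -EIPA and to 56696 and 57435 CPM in +EIPA, with 17 of its 18 genes higher and not overlapping. For the G2/M list the sums were 618 and 955 CPM in -EIPA and 551 and 509 CPM in +EIPA, with 17 of 18 genes lower and not overlapping, and for the stem cell list 369 and 705 CPM against 391 and 343 CPM, with 6 of 17 genes lower and not overlapping. The share of all genes without overlap was not computed for such counts, here or below. Within single clusters the directions were kept: in clusters 2, 5 and 9 the log2 fold changes were -0.54, -0.79 and -0.58 for Ccnd1, -0.28, -0.75 and -0.85 for Ccnd2, -0.41, -0.61 and -0.72 for Cdk4 and 0.82, 0.31 and 0.97 for Cdkn1a. None of these 12 values passed an adjusted p of 0.05 without the block, and the smallest adjusted p was 0.117 (Cdk4, cluster 9). The part of the class makeup in the differences over the whole class was not tested beyond these values.

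**Figure D3:**
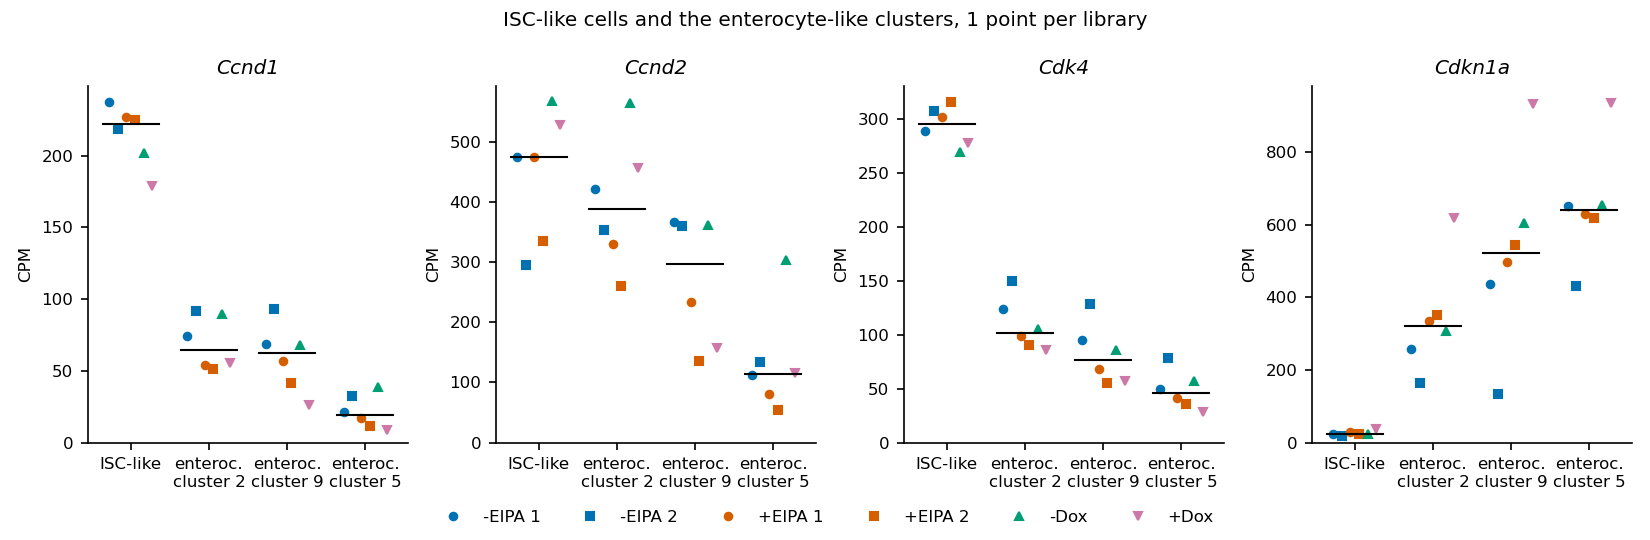
CPM of Ccnd1, Ccnd2, Cdk4 and Cdkn1a in ISC-like cells and in enterocyte-like clusters 2, 9 and 5, 1 point per library with a bar at the median. The first 3 genes are lower in cluster 5 than in cluster 2 in 6 of 6 libraries, Cdkn1a is higher there, and within each enterocyte-like cluster the +EIPA points of Ccnd1 lie below the -EIPA points and the +Dox point below the -Dox point.

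The change with EIPA was then compared between ISC-like and enterocyte-like cells in a model with the library as a block, which called 1.42% of 12977 genes. Ccnd1 and Cdk4 differed between the classes. For Ccnd1 the log2 fold change was 0.06 in ISC-like and -0.74 in enterocyte-like cells, a difference of 0.75 ± 0.16 (SE, edgeR adjusted p = 0.0465). For Cdk4 it was 0.12 and -0.58, a difference of 0.65 ± 0.14 (edgeR adjusted p = 0.0483). Ccnd2 missed the threshold (0.68 ± 0.16, edgeR adjusted p = 0.0605) but passed it with doublets removed (0.0193) or library-size scaling (0.0363), and the other 6 members had adjusted p-values from 0.258 to 0.815. With clusters built without batch correction the Ccnd1 and Cdk4 differences were 0.42 (adjusted p = 0.230) and 0.36 (0.283), and at a finer clustering they were 0.50 (0.268) and 0.51 (0.178), so both calls were lost there. The batch correction took each library as a batch. Without it the ISC-like class held 1418 and 2729 cells in -EIPA and 390 and 144 in +EIPA, so the class was not matched between the groups.

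In ISC-like cells the D cyclins and kinases differed little with EIPA. The log2 fold changes were 0.06 ± 0.09 for Ccnd1, 0.05 ± 0.12 for Ccnd3, 0.12 ± 0.09 for Cdk4 and -0.11 ± 0.10 for Cdk6, and none of these 4 was called with or without the block, although Cdk6 was lower in both experiments without overlap. Ccnd2 had 474 and 295 CPM in -EIPA and 475 and 334 CPM in +EIPA, overlapping groups with a log2 fold change of 0.14 ± 0.25 (edgeR adjusted p = 1.00, with the block 0.0374), and its sign turned when -EIPA 2 or +EIPA 1 was left out. Cdkn1a was at 22.9 and 17.1 CPM in -EIPA and 28.3 and 23.5 CPM in +EIPA (log2 fold change 0.45 ± 0.17, edgeR adjusted p = 1.00, with the block 0.00110). Cdkn1b was at 61.9 and 75.3 CPM in -EIPA and 49.3 and 57.9 CPM in +EIPA (-0.29 ± 0.14, edgeR adjusted p = 1.00, with the block 0.00438). Both inhibitors thus had groups that did not overlap and the same direction in both experiments. The share of all genes without overlap was not computed in any class, so this does not set the inhibitors apart from other genes. In the same cells the enterocyte markers, which mark a class high in Cdkn1a, summed to 944 and 763 CPM in -EIPA and 1081 and 969 CPM in +EIPA, with 11 of 18 genes higher without overlap, and their part in the Cdkn1a difference was not tested.

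In proliferating-like cells Cdk6 was at 59.0 and 56.5 CPM in -EIPA and 71.3 and 66.1 CPM in +EIPA, with a log2 fold change of 0.31 ± 0.07 (edgeR adjusted p = 0.624, with the block 0.00117). Cdkn1a was at 47.2 and 42.6 CPM in -EIPA and 52.5 and 57.6 CPM in +EIPA, with a log2 fold change of 0.36 ± 0.09 (edgeR adjusted p = 0.776, with the block 0.00457). A kinase partner and an inhibitor of cyclin D complexes were therefore both higher in +EIPA without overlap. The enterocyte markers summed to 1224 and 1041 CPM in -EIPA and 1433 and 1319 CPM in +EIPA there, with 12 of 18 genes higher and 1 lower without overlap, and their part was not tested. Ccnd2 was at 605 and 364 CPM in -EIPA and 657 and 462 CPM in +EIPA, overlapping, with a log2 fold change of 0.27 ± 0.27 (edgeR adjusted p = 1.00, with the block 0.00616), and its sign turned without -EIPA 2. The other 6 members had log2 fold changes from -0.17 to 0.11 and were not called in either fit. In Goblet/Paneth-like cells Cdk6 was called with the block: it was at 51.7 and 52.6 CPM in -EIPA and 62.2 and 59.0 CPM in +EIPA, with a log2 fold change of 0.30 ± 0.10 (edgeR adjusted p = 0.592, with the block 0.010005). The makeup of this class moved as well: Goblet-led cluster 8 was 45.1% and 39.3% of it in -EIPA and 33.8% and 27.9% in +EIPA, and Paneth-led cluster 6 was 39.0% and 44.0% against 46.8% and 50.1%. The Cdk6 log2 fold change was 0.44 ± 0.11 within cluster 8 (edgeR adjusted p = 0.437) and 0.04 ± 0.12 within cluster 6 (edgeR adjusted p = 1.00). Within Paneth-led cluster 15 it was 0.41 ± 0.18 (edgeR adjusted p = 1.00), and the part of the makeup was not tested beyond these values.

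Over all cells Cdkn1a was at 138 and 101 CPM in -EIPA and 187 and 181 CPM in +EIPA, with a log2 fold change of 0.71 ± 0.16, an edgeR adjusted p of 0.295, 0.0390 with the block and 0.00172 by DESeq2, which called 3.78% of genes. It was the 1 member called over all cells by either of those fits. Enterocyte-like cells, a class high in Cdkn1a, were 19.9% and 14.5% of cells in -EIPA and 22.8% and 19.6% in +EIPA, and proliferating-like cells 39.0% and 36.9% against 32.9% and 31.7%, although without batch correction of the clusters the latter were 37.2% and 33.4% against 38.5% and 39.4%. In that clustering ISC-like cells were 11.25% and 14.99% against 2.96% and 1.01%. A cluster named there from S phase genes, with Gkn3 and Olfm4 among its leading genes, held 171 and 55 cells of -EIPA and 1934 and 2561 of +EIPA. In EEC-like, tuft-like and regenerative-like cells, which were not tested, Cdkn1b was lower in both experiments in EEC-like (0.778 and 0.802 of -EIPA) and tuft-like cells (0.648 and 0.769), and Cdkn1c was lower in both in EEC-like cells (0.931 and 0.840) with overlapping groups. Ccnd2 in EEC-like cells was higher in both experiments (1.30 and 1.33 times), also with overlapping groups.

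**Figure D4:**
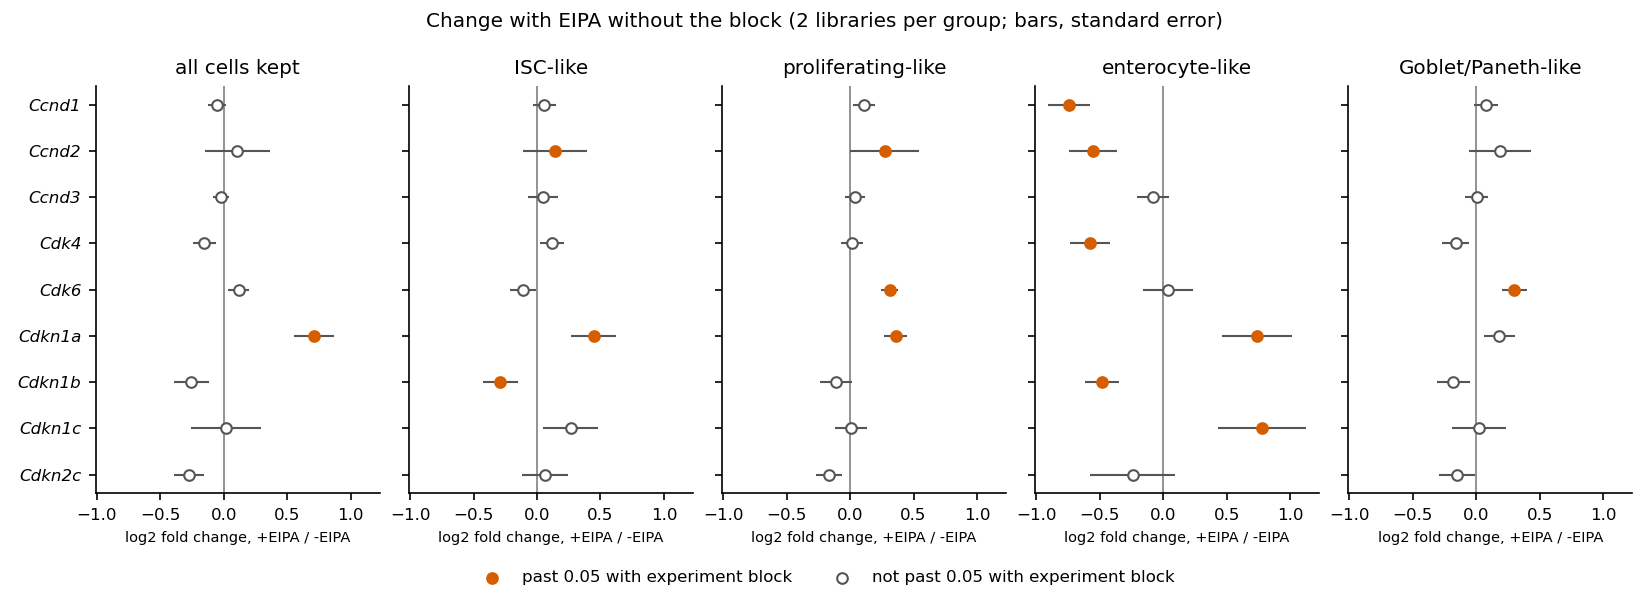
Log2 fold change of the 9 genes in +EIPA against -EIPA (points, fit without the block) with standard error bars, for all cells and 4 classes, 2 libraries per group. Filled points mark an adjusted p under 0.05 with the experiment as a block: 6 of 9 genes in enterocyte-like cells and 1 to 3 in the other panels.

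Lists of the wider pathway were fixed alongside the members, and edgeR called 0 genes of any list with EIPA without the block. DESeq2, which ignored the pairing, did call some. Over all cells these included E2f8 (adjusted p = 0.00875), Cdkn2a (0.0213), Phlda3 (0.000663) and Pmaip1 (0.00923). Others were Phlda3 (2.31e-07) and Gdf15 (0.000193) in proliferating-like cells and E2f2 (0.0362) and Btg2 (0.00763) in enterocyte-like cells. Of all genes DESeq2 called 3.78% over all cells, 110 of 13908 in proliferating-like and 5.09% in enterocyte-like cells. Cdkn2a was low over all cells, at 0.414 and 0.297 CPM in -EIPA and 0.750 and 1.07 CPM in +EIPA. It was not called by edgeR with the block (adjusted p = 0.0693). The RB-E2F list holds the RB family, E2F factors, cyclins E, A and B and their kinases, and 21 of its 21 genes were tested in each class. With the block 0 rose and 3 fell over all cells, 1 fell in proliferating-like and 1 fell in enterocyte-like cells, and 0 were called in ISC-like or Goblet/Paneth-like cells. The shares over all genes were 5.28%, 6.14% and 9% in the first 3 of these groupings, so 1 of 21 lay below them. E2f8, an E2F repressor, was at 21.7 and 22.3 CPM in -EIPA and 15.6 and 15.6 CPM in +EIPA over all cells (log2 fold change -0.41 ± 0.07, edgeR adjusted p = 0.245, with the block 0.0266). Over all cells 16 of 20 S phase and 14 of 18 G2/M markers were also lower without overlap, and their part was not tested. Within proliferating-like cells E2f8 was at 33.3 and 34.0 CPM against 26.7 and 27.8 CPM (-0.24 ± 0.08, edgeR adjusted p = 0.923, with the block 0.0158), with 8 of 20 and 5 of 18 markers lower without overlap. These marker counts have no background, since the share of all genes lower without overlap was not computed. E2f2, an E2F activator, was at 21.8 and 18.5 CPM against 12.4 and 8.62 CPM in enterocyte-like cells (-0.80 ± 0.20, edgeR adjusted p = 0.144, with the block 0.00661). The list's median log2 fold change in enterocyte-like cells was -0.26, beside -0.04 over all genes.

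The list of other INK4 genes, CDK-activating kinase subunits and factors that degrade cyclins or inhibitors held 11 genes, of which 10 or 11 were tested. With the block 1 rose over all cells, 2 in ISC-like and 1 in proliferating-like cells, and 0 fell, beside 5.28%, 6.8% and 6.14% of all genes, so that 1 of 11 was near the background. In ISC-like cells those were Cks1b and Skp2, which work together to mark Cdkn1b for degradation, with log2 fold changes of 0.29 ± 0.09 (edgeR adjusted p = 1.00, with the block 0.00260) and 0.38 ± 0.15 (1.00, with the block 0.0304). Cdkn2b, an INK4 inhibitor, was at 70.1 and 46.6 CPM in -EIPA and 92.7 and 77.8 CPM in +EIPA over all cells (log2 fold change 0.63 ± 0.21, edgeR adjusted p = 0.436, with the block 0.0377). Within enterocyte-like cells, where its -Dox level was highest of the 4 classes, it was not called (0.47 ± 0.19, edgeR adjusted p = 0.268, with the block 0.0694). Over all cells the enterocyte markers summed to 8537 and 4756 CPM in -EIPA and to 15084 and 13293 CPM in +EIPA, with 17 of 18 genes higher without overlap, and their part was not tested.

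The list of p53 targets other than Cdkn1a held 16 genes, of which 15 or 16 were tested. With the block 4 rose and 1 fell over all cells, 4 rose and 3 fell in ISC-like, 7 rose and 2 fell in proliferating-like, 0 rose and 1 fell in enterocyte-like and 3 rose and 1 fell in Goblet/Paneth-like cells. Of all genes 5.28%, 6.8%, 6.14%, 9% and 6.4% were called in these groupings, and the share of the list was below that in enterocyte-like cells (1 of 15) and above it in the others, as a description with no test. Phlda3, an inhibitor of AKT signalling, was at 14.8 and 15.3 CPM in -EIPA and 24.5 and 25.2 CPM in +EIPA in proliferating-like cells (log2 fold change 0.78 ± 0.08, edgeR adjusted p = 0.194, with the block 8.62e-06), and Gdf15, a stress-induced secreted factor, was at 11.4 and 10.3 CPM against 16.7 and 20.2 CPM (0.83 ± 0.13, edgeR adjusted p = 0.375, with the block 0.000153). Bax, a promoter of apoptosis, was at 193 and 179.5 CPM against 241 and 247 CPM in ISC-like cells (0.45 ± 0.09, edgeR adjusted p = 0.998, with the block 1.19e-13). Btg2, an antiproliferative gene, went the other way in enterocyte-like cells, with 77.2 and 108 CPM in -EIPA and 47.5 and 50.5 CPM in +EIPA (-0.77 ± 0.18, edgeR adjusted p = 0.132, with the block 0.00592), and Pmaip1, another apoptosis gene, fell over all cells with the block (-0.50 ± 0.10, edgeR adjusted p = 0.265, with the block 0.0466). Genes of this list thus moved in both directions.

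With Dox, 1 library stood on each side, so no test was made, intervals are exact 95% Poisson intervals that cover counting error only, and a gene was counted as past the mark when it differed by more than 1.5-fold and had at least 50 UMIs over both libraries. Cdkn1a was higher in +Dox, and Ccnd1, Ccnd2 and Cdk4 were lower by more than 1.5-fold in enterocyte-like cells. Ccnd1 was lower in the other classes as well. Without and with Dox it was at 144 and 99.5 CPM over all cells and 202 and 179 CPM in ISC-like cells. It was at 173 and 144 CPM in proliferating-like and 116 and 88.1 CPM in Goblet/Paneth-like cells. In regenerative-like cells it was at 187 and 114 CPM, past 1.5-fold. Its intervals overlapped in EEC-like and tuft-like cells only. The background past 1.5-fold was 16.6% of genes over all cells, 5.83% in ISC-like, 8.79% in proliferating-like, 23.7% in enterocyte-like and 7.62% in Goblet/Paneth-like cells. The members past it were 1 of 9 over all cells, 2 of the 8 with enough UMIs in ISC-like, 2 of 9 in proliferating-like, 6 of 9 in enterocyte-like and 2 of 9 in Goblet/Paneth-like cells. At a finer clustering 0 were past it in ISC-like cells, where neither Cdkn1a nor Cdkn2c kept the mark, and 1 in Goblet/Paneth-like cells, where Cdkn1a did not, and without batch correction 3 were past it in enterocyte-like cells and 1 in ISC-like cells. With doublets removed 1 was past it in ISC-like and 1 in Goblet/Paneth-like cells. The enterocyte-like class had the highest background as well, and its members had a median log2 ratio of -0.66 beside -0.10 over all genes.

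Cdkn1a over all cells was at 163 CPM without Dox (interval 162 to 165) and at 344 CPM with Dox (341 to 346), a ratio of 2.10. Proliferating-like cells were 38.5% of cells without and 25.95% with Dox, enterocyte-like cells 24.02% and 28.8%, and the enterocyte markers summed to 10191 and 21490 CPM over all cells, with 18 of 18 genes higher. By class Cdkn1a was at 23.6 CPM (21.3 to 26.1) and 36.7 CPM (33.5 to 39.99) in ISC-like, 59.3 and 96.3 CPM in proliferating-like, 119.6 and 192 CPM in Goblet/Paneth-like and 446 and 803 CPM in enterocyte-like cells. These ratios ran from 1.55 to 1.80, and the one in enterocyte-like cells (log2 ratio 0.85) was 0.58 with clusters built without batch correction, just under 1.5-fold. The enterocyte markers moved with Cdkn1a inside these classes too, from 1331 to 1530 CPM in ISC-like (13 of 18 genes higher), from 1911 to 2519 CPM in proliferating-like (15 of 18) and from 3077 to 5910 CPM in Goblet/Paneth-like cells (17 of 18), and their part was not tested. In EEC-like cells the 2 intervals overlapped, at 598 CPM (571 to 626) and 633 CPM (616 to 651), and they overlapped in tuft-like cells too.

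In enterocyte-like cells Ccnd1 was at 70.6 CPM without Dox (68.3 to 73.0) and at 29.4 CPM with it (28.1 to 30.8), 2.40-fold lower. Ccnd2 was at 461 CPM (455 to 467) and 259 CPM (255 to 263), and Cdk4 at 87.6 CPM (85.0 to 90.2) and 54.4 CPM (52.6 to 56.2), a log2 ratio of -0.69 that was -0.58, just under 1.5-fold, with clusters built without batch correction. Cdkn2c (6.55 and 3.95 CPM) and Cdkn1c (0.868 and 0.549 CPM, on 44 and 36 UMIs) were also past the mark, the latter with overlapping intervals. Cluster 5 made up 29.4% of the class in -Dox and 51.0% in +Dox, the enterocyte markers summed to 37884 and 64483 CPM with 18 of 18 genes higher, and the G2/M list summed to 816 and 392 CPM. Within clusters 2, 5 and 9 the log2 ratios were -0.69, -2.16 and -1.37 for Ccnd1, -0.31, -1.39 and -1.20 for Ccnd2, -0.29, -1.01 and -0.59 for Cdk4 and 1.01, 0.52 and 0.63 for Cdkn1a, so each direction was present in each cluster. The part of the makeup and of the GFP sort was not tested.

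Cdk6 was higher in +Dox in every class, except that with clusters built without batch correction it was not higher in ISC-like cells. There, 2261 -Dox and 60 +Dox cells lay in 1 ISC-like cluster and 22 and 2383 in another, so the 2 sides sat mostly in different clusters. Within the EEC-like class cluster 19 went the other way (114 CPM without and 59.7 CPM with Dox, on 52 and 34 UMIs). Cdk6 was at 220.0 CPM (213 to 227) and 273 CPM (265 to 282) in ISC-like cells, 105 and 171 CPM in proliferating-like cells and 93.9 and 145 CPM in Goblet/Paneth-like cells, the last 2 past 1.5-fold, as were tuft-like and regenerative-like cells. In the Goblet/Paneth-like class cluster 8 was 40.03% of cells without and 25.1% with Dox, and Cdk6 was at 114 and 154 CPM within cluster 6, under 1.5-fold, and at 67.9 and 135 CPM within cluster 8. In regenerative-like cells the 7 regenerative markers summed to 461 CPM without and 2711 CPM with Dox, and the part of these differences was not tested. Across the 7 classes the log2 ratio ran from 0.31 to 0.91. Ccnd3 and Cdkn1b stayed within 1.5-fold in all cells and in the 4 classes with a background, and Cdkn2c in ISC-like cells was at 10.4 CPM without Dox (8.92 to 12.1) and at 6.72 CPM with it (5.43 to 8.24), past 1.5-fold. Of the RB-E2F list, 13 of 21 genes were past the mark and lower in enterocyte-like cells, with a median log2 ratio of -0.83, and 0 of 21 in proliferating-like cells (median -0.14), where 23.7% and 8.79% of all genes were past the mark in either direction. Past the mark and lower were also 4 of 21 over all cells (median -0.38), 4 in ISC-like (-0.32) and 3 in Goblet/Paneth-like cells (-0.28). The shares of all genes past it either way were 16.6%, 5.83% and 7.62% in these groupings. The p53 target list had 2 genes higher and 1 lower past the mark in proliferating-like cells and 0 higher and 1 lower in enterocyte-like and in ISC-like cells. Over all cells and in Goblet/Paneth-like cells 1 was higher and 1 lower. Of the list of other INK4 genes, 1 was higher over all cells (Cdkn2b, 66.6 CPM without and 103 CPM with Dox) and 1 lower. In enterocyte-like cells 0 of that list were higher and 2 lower, and 0 were past the mark in the other classes with a background.

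**Figure D5:**
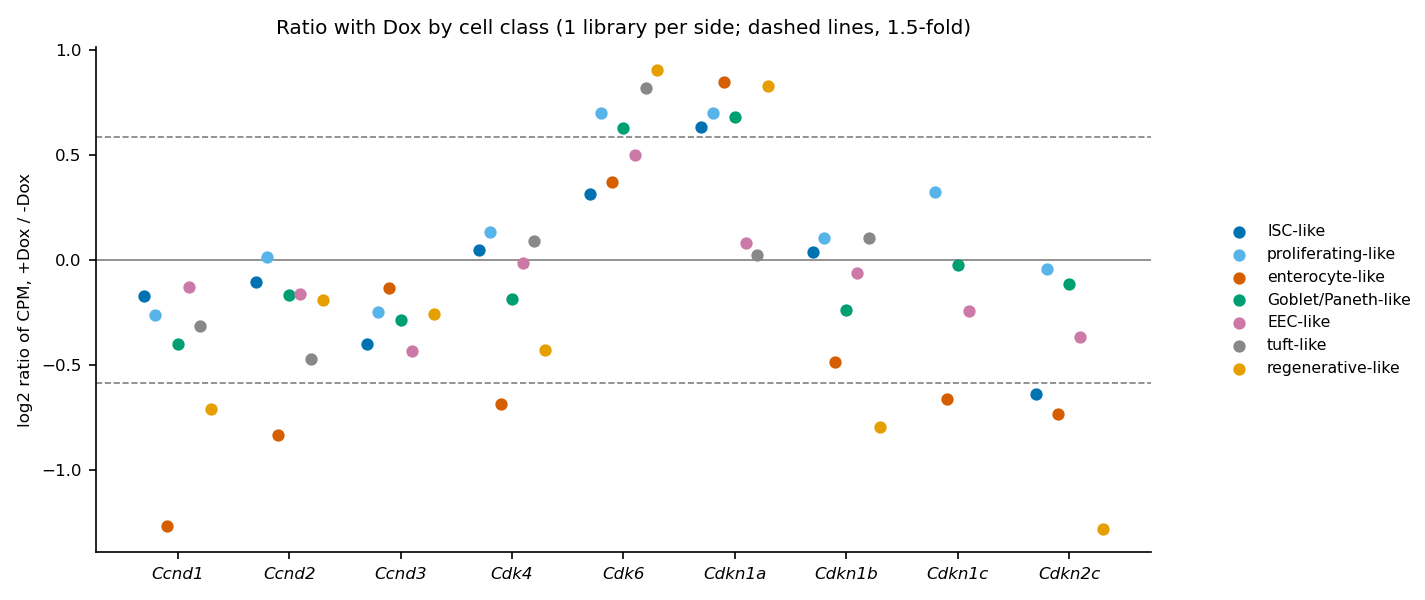
Log2 ratio of CPM in +Dox over -Dox for each gene with at least 50 UMIs, by cell class (colours), 1 library per side, with dashed lines at 1.5-fold. Cdkn1a and Cdk6 lie above 0 in all classes shown, and the enterocyte-like points of Ccnd1, Ccnd2 and Cdk4 lie below the lower line.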

How the data were processed

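The authors deposited raw UMI counts per gene and cell barcode, made with Cell Ranger 6.1.2 on mm10. No column was left unmapped to a sample. Barcodes holding 1000 or more genes and less than 20% mitochondrial counts were kept and clustered (3000 genes without the 9 members, 45 components, 20 neighbours, Leiden resolution 0.8) after Harmony correction in numpy 2.4.6 with scanpy 1.11.5. Clusters were named from the cell type lists among 146 markers by a rule set after clusters were seen. The epithelial, immune and stromal lists among the 146 served as checks only. Members and lists were chosen with earlier results of these data known. CPM are UMIs scaled to a total of 1e6 per class and library. Counts summed per library and class were tested in edgeR 4.0.16 (TMM, quasi-likelihood, Benjamini-Hochberg, threshold 0.05, after a low-count filter), and DESeq2 1.42.0 served as an alternative. The named genes were all 9 members, of each pathway list those past the threshold (at most 5) or else the 2 with the smallest p, and the 2 genes most like each member. The fits were run on simulated data with known changes, a fixed dispersion and no difference between experiments. The fit with the block was not required to recover a set share of those changes, so the simulation is no check of its calls. The gene targeted by the guide is not reported here.

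Library numbers mark separate experiments in the study's source data, and the deviations of same-numbered libraries correlated at 0.69 over all cells, 0.605 in ISC-like, 0.733 in proliferating-like, 0.44 in enterocyte-like and 0.541 in Goblet/Paneth-like cells, so the numbers were taken as pairs. No source names separate animals for the libraries, so p-values measure the spread between these preparations. Scrublet set no usable threshold in 3 libraries, so doublets were kept and removal of the 10% highest scores per library was an alternative. The range of depth over libraries is in the report, and intervals cover counting error only.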

Additional observations from a re-analysis of the deposited data

Results flagged for a closer look

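Ccnd1 and Cdk4 stood out because their change with EIPA differed between ISC-like and enterocyte-like cells in a test of the difference itself. The log2 fold change of Ccnd1 was higher in ISC-like cells by 0.75 ± 0.16 (SE, edgeR adjusted p = 0.0465), and over the alternatives run without batch correction and at a finer clustering it was 0.42 and 0.50, both uncalled. For Cdk4 the difference was 0.65 ± 0.14 (edgeR adjusted p = 0.0483), with 0.36 and 0.51 under the same alternatives. In -EIPA both genes were lower in enterocyte-like than in ISC-like cells, so the groups compared also differ in level.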

How the results depend on the processing

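Most values of the members kept their direction and their side of the threshold. Genes called with EIPA, in the order all cells, ISC-like, proliferating-like, enterocyte-like and Goblet/Paneth-like cells, were 579, 14, 110, 612 and 114 by DESeq2, 839, 788, 844, 1144 and 808 with the replicate block, and 198, 118, 101, 1403 and 400 with no filter on low counts. In enterocyte-like and Goblet/Paneth-like cells they were 3 and 81 with library-size scaling, 4 and 52 with stricter limits on cells, 12 and 2 with doublets removed and 1 and 13 at Leiden resolution 1.6, while without Harmony they were 16 in enterocyte-like and 9 in ISC-like cells. Enterocyte-like cluster 2 alone gave 38 and cluster 5 alone gave 3, both chosen after seeing the data. The interaction called 2 genes at resolution 1.6 and 583 with doublets removed. Leaving out 1 library gave 0 to 137 genes over all cells, 1 to 2 in ISC-like, 0 to 9 in proliferating-like, 0 to 1380 in enterocyte-like and 0 to 127 in Goblet/Paneth-like cells.

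Members past 1.5-fold with Dox were 1 in Goblet/Paneth-like and 0 in ISC-like cells at resolution 1.6, 1 in each with doublets removed, and 1 in ISC-like and 3 in enterocyte-like cells without Harmony.

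Signs turned for the following values, none of them called at an adjusted p under 0.05 in the report's fits. Without Harmony the log2 fold changes in ISC-like cells were -0.15 for Ccnd1, -0.19 for Ccnd3, -0.085 for Cdk4, 0.0055 for Cdk6, -0.31 for Cdkn1c and -0.42 for Cdkn2c, with -0.19 for Cdk6 in enterocyte-like and -0.033 for Cdkn1c in Goblet/Paneth-like cells, and the interactions were -0.20 for Ccnd3, 0.16 for Cdk6, 0.27 for Cdkn1a and -0.21 for Cdkn2c. Harmony took each library as a batch, so it also aligned the treatment groups. Without it ISC-like cells numbered 1418 and 2729 in -EIPA and 390 and 144 in +EIPA. Cdk6 in enterocyte-like cells was -0.013 at resolution 1.6, -0.018 with doublets removed, -0.12 with library-size scaling and -0.0012 in cluster 5 alone. Cdkn1c in Goblet/Paneth-like cells was -0.052 at resolution 1.6 and with library-size scaling, -0.28 with doublets removed and -0.026 with the replicate block. Cdkn1c was -0.00595 over all cells and -0.019 in proliferating-like cells with doublets removed, -0.0032 over all cells with stricter limits, and -0.061 and -0.053 in those groupings with library-size scaling. Ccnd3 in Goblet/Paneth-like cells was -0.0049 with doublets removed. Library-size scaling also gave -0.0063 and -0.011 for Ccnd1 in Goblet/Paneth-like and ISC-like cells, -0.085, -0.021 and -0.023 for Ccnd3 in Goblet/Paneth-like, ISC-like and proliferating-like cells, -0.045 for Cdk4 in proliferating-like cells and -0.0036 for Cdkn2c in ISC-like cells. The Ccnd1 and Cdk4 interactions were lost without Harmony (0.42 and 0.36) and at resolution 1.6 (0.50 and 0.51). Causes were not tested.

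Leaving out 1 library, Ccnd2 ran from -0.13 to 0.59 in Goblet/Paneth-like, -0.16 to 0.52 in ISC-like, -0.18 to 0.45 over all and -0.033 to 0.66 in proliferating-like cells. Ccnd3 ran from -0.057 to 0.060, -0.047 to 0.14, -0.048 to 0.0024 and -0.035 to 0.12 in the same order. Cdk4 ran from -0.053 to 0.090 and Cdkn1b from -0.25 to 0.042 in proliferating-like cells, Cdk6 from -0.19 to 0.34 in enterocyte-like cells, Cdkn2c from -0.074 to 0.20 in ISC-like and -0.60 to 0.29 in enterocyte-like cells, and Cdkn1c from -0.24 to 0.28 in Goblet/Paneth-like, -0.33 to 0.47 over all and -0.088 to 0.098 in proliferating-like cells. The class with the highest level was kept for 9 of 9 members with doublets removed, stricter limits or resolution 1.6, and for 8 of 9 without Harmony, where Ccnd2 was highest in proliferating-like cells.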
